A study of Arabidopsis thaliana with 6 samples.

Results

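Transcripts of 10 chaperone loci of Arabidopsis thaliana were followed through 6 RNA-seq libraries of early seed tissues. The loci were taken from a fixed list of the cytosolic HSP70 proteins, the HSP70 proteins of the endoplasmic reticulum (ER), the inducible HSP90 and the disaggregase HSP101, and they are 10 of the 32140 loci counted. Of these, 4 are called stress-induced here (HSP70-4, HSP70B, HSP90.1 and HSP101), 3 constitutive cytosolic (HSP70-1, HSP70-2 and HSC70-3) and 3 ER-resident (BIP1, BIP2 and BIP3), from general knowledge and not from these libraries. All 10 passed the filter on low counts in every comparison.

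The libraries came from dissected tissue of plants kept under 16 h of light, and total RNA was amplified linearly before SOLiD sequencing. A pair of libraries, kyp libraries 11 and 12, held 2-4 cell embryos with Landsberg erecta (Ler) mothers labelled kyp-2, an allele of KRYPTONITE (KYP), the histone H3 lysine 9 methyltransferase, and Columbia_0 (Col0) fathers. Wild-type Ler mothers crossed with Col0 gave 1 library of globular embryos and, at the 2-4 cell stage, WT libraries 7 and 11, the reference for every comparison. The seed coat library was wild-type Ler tissue around 2-4 cell embryos. The embryos included part of the suspensor. The labels do not state whether the Col0 father of kyp library 11 or of the globular embryos was wild type (that field carries a second maternal entry, wild type), nor whether replicate libraries were made from different plants, and p-values therefore measure only the spread between these libraries.

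HSP70 proteins bind exposed hydrophobic stretches of unfolded or newly made proteins and release them in a cycle driven by ATP. HSP90 takes over clients that are nearly folded, among them many signalling proteins, and HSP101, a ClpB-type ring ATPase, threads proteins out of aggregates together with HSP70 and is needed for acquired heat tolerance in Arabidopsis. Heat shock factors induce the stress members by binding heat shock elements, inverted repeats of GAA, whereas the BiP proteins, the HSP70s of the ER lumen, are induced by the unfolded protein response through bZIP factors.

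Library totals ran from 1448502 to 4107227 reads, and levels are reads of a gene relative to the library total (CPM) after TMM scaling, edgeR's correction for library composition. KYP itself was at 44.3 and 40.6 CPM in kyp libraries 11 and 12, against 57.2 and 62.8 CPM in WT libraries 7 and 11 (log2 fold change −0.50, SE 0.42, edgeR adjusted p = 1.00), so its transcript level does not check the labels. WT library 11 and kyp library 12 share the name prefix MC, which the labels do not explain, and stand apart in holding values that end in 0.5 reads, and WT library 11 also in its ribosomal RNA, 8.999% of its reads against 0.804 to 1.80% elsewhere. The 8 seed coat markers summed to 1491 CPM in the seed coat library, within the 890 to 1499 CPM of the embryo libraries. Their sum thus did not set that tissue apart, and singly they disagreed. BAN was at 326 CPM in the seed coat library against at most 231 CPM in the embryo libraries. AHA10 was at 197 against at most 175 CPM, and TT8 at 130 against at most 112 CPM. DFR, TT12, TT16, TT10 and TTG2 were each higher in at least 1 embryo library. Of the 6 embryo markers WOX2 was at 0.896 CPM, LEC1 at 0, WOX8 at 0.448 and WOX9 at 2.69 CPM in the seed coat library, each below every embryo library. PIN7, at 27.3 CPM there, was within the 4.69 to 32.2 CPM of the embryo libraries. ATML1, at 327 CPM, was within their 323 to 572 CPM. In these whole tissues fewer cells of a type and less RNA per cell cannot be told apart.

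The coding sequences show how the members differ and where reads can be confused. The last 63 bases of the reading frame, 5′ to 3′ on the coding strand and taken from the RefSeq annotation of TAIR10.1, are given for a representative of each kind, with the last 4 codons before the stop in capitals. In the cytosolic HSP70 and HSP90 proteins these codons encode the docking site for co-chaperones with tetratricopeptide repeats, and in the BiP proteins they encode the ER retention signal.
HSP70-1: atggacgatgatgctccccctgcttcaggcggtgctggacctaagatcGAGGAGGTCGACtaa
HSP70-4: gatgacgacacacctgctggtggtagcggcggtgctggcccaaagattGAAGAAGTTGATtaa
HSP90.1: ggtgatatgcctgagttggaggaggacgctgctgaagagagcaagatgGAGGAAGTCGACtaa
HSP101: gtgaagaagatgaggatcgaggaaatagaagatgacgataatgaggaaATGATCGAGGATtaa
BIP1: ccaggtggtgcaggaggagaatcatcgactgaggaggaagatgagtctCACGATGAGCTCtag
BIP2: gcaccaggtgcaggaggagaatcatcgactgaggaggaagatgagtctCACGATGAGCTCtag

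BIP1 and BIP2 were 97.5% identical over 2007 aligned coding bases, against 73.3% for BIP1 and BIP3. Among the cytosolic HSP70 genes identity to HSP70-1 was 87.2% for HSP70-2, 84.4% for HSC70-3 and 79.4% for HSP70-4. Windows of 50 bases, about the length of a read, were taken from each transcript. Of these, 23.3% in BIP1 and 25.3% in BIP2 occurred at more than 1 place in the genome. With 2 mismatches allowed, windows were compared only with the transcripts of the other listed chaperones, not with the genome. Counting those matches too, the shares were 60.8% in BIP1 and 66.6% in BIP2. They were 8.66% in HSP70-2, 6.225% in HSP70-1, 2.07% in HSC70-3 and lower in the remaining members. In the other 8 members at most 0.227% of windows were repeated exactly. The split of reads between BIP1 and BIP2 is therefore uncertain, while the other HSP70 members could be told apart over nearly their whole length. In the RefSeq gene models HSC70-3 overlaps AT3G09430 by 863 bases and HSP101 overlaps AT1G74300 by 101 bases, each on the opposite strand. HSC70-3 also overlaps the snoRNA gene AT3G02205 by 122 bases on the same strand. Overlaps and windows rest on RefSeq models, not on the transcripts counted, and for HSC70-3 these have 3138 and 2277 bases. Whether the overlap with AT3G09430 reaches the counted transcript was not tested. Strand is not stated to have been kept, so the levels of HSC70-3 and HSP101 are uncertain too. The opposite-strand partners held at most 35 and 25 reads in any library.

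The genomic sequence before the coding start was searched on both strands for heat shock elements, as GAANNTTC or TTCNNGAA for 2 facing units and as GAANNTTCNNGAA or TTCNNGAANNTTC for 3 units, which contains the shorter form. It was also searched for ATTGGNCCACG, an ER stress element. These are the matches that carry the comparison of the classes, each with 8 flanking bases, the match in capitals, on the coding strand and from TAIR10.1.
HSP70-4: ttactcgtGAACGTTCTCGAAagctcttt
HSP90.1: aacgaaaaGAACTTTCTGGAAttcgtttg
HSP70B: gaccttttTTCTCGAAatgtctcg
HSP101: aaataagcGAAAATTCcacgtgac
HSP70-1: caaccatcGAACATTCTCGAAacatttta
HSP70-2: taattacaGAACATTCTGGAAactcaagt
HSC70-3: atcgaaccGAACATTCTCGAAccttttta
BIP1: gtaagataATTGGTCCACGtcatctct
BIP2: gtaagataATTGGTCCACGtcatctcc

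The 3-unit element lay 177 bases before the coding start of HSP70-4 and 295 bases before that of HSP90.1. It also preceded all 3 constitutive members, at 240 bases in HSP70-1, 141 bases in HSP70-2 and 282 bases in HSC70-3, which held a further copy at 153 bases. HSP70B and HSP101 had only the 2-unit form, at 150 and 478 bases. Within 500 bases before the coding start the 3-unit form was present in 5 of 10 members and in 1.2% of 27443 genes, and the 2-unit form in 7 of 10 members and 33.9% of genes. The presence of these letters thus did not separate the stress-induced from the constitutive members. The ER stress element was found in BIP1, 168 bases before the coding start, and in BIP2, 193 bases before it, and in 0.0984% of genes. This window was chosen after a search from 250 bases before to 50 after the RefSeq transcript start, which held the 3-unit form in 2 members and 0.481% of genes, the 2-unit form in 3 and 19.3%, and the ER element in 1 and 0.0692%.

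Divided by transcript length, the constitutive HSP70-2 and HSP70-1 had the highest mean levels in the WT embryos and the stress members were far lower. The level per kilobase in WT embryos was 727 ± 217 CPM for HSP70-2 and 623 ± 194 CPM for HSP70-1 (SD, n = 2 here and below). It was 409 ± 323 CPM for BIP2, 275 ± 109 CPM for HSC70-3 and 273 ± 210 CPM for BIP1. The stress members followed at 103 ± 27.9 CPM per kilobase for HSP70-4, 90.45 ± 2.12 for HSP90.1, 67.2 ± 42.7 for HSP101 and 15.9 ± 6.95 for HSP70B. BIP3 was lowest at 7.29 ± 2.81 CPM per kilobase. The intervals of mean ± SD overlapped between HSP70-2 and HSP70-1, among BIP2, HSC70-3 and BIP1, and among HSP70-4, HSP90.1 and HSP101. Those of BIP2 and BIP1 were wide and also overlapped HSP70-1, HSP70-4, HSP90.1 and HSP101, and that of BIP2 overlapped HSP70-2 as well. HSP70B and BIP3 overlapped too. In WT library 11 alone BIP2 was first, at 638 CPM per kilobase, ahead of HSP70-2 at 573 and HSP70-1 at 486.

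**Figure D1:**
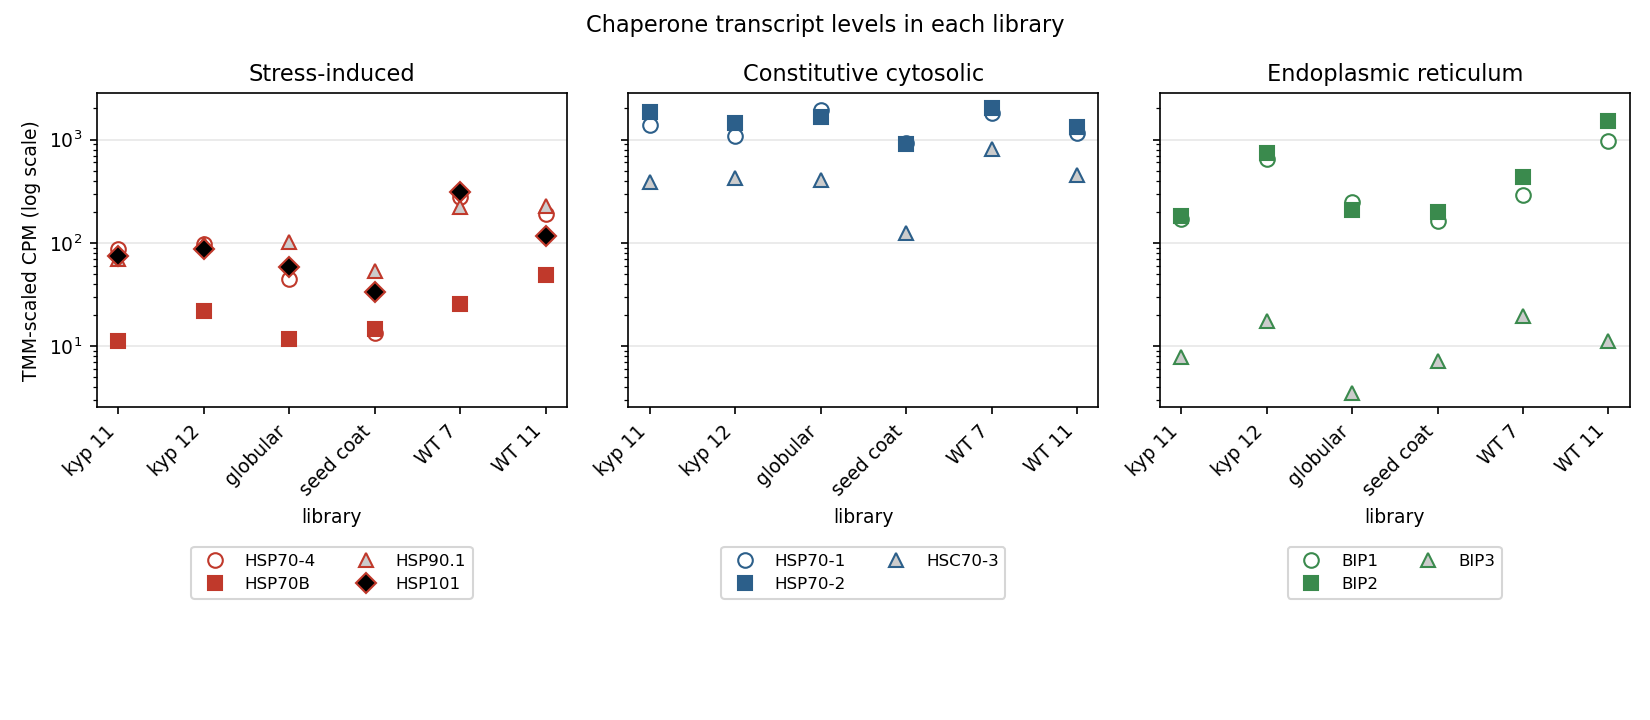
TMM-scaled CPM (log scale) of each chaperone gene in each library, with stress-induced, constitutive cytosolic and ER members in separate panels and 1 point per gene and library. HSP70-4 spans 13.4 CPM in the seed coat to 281 CPM in WT library 7, whereas HSP70-1 stays between 918 and 1928 CPM.

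Of the stress-induced members, HSP70-4 (AT3G12580), a cytosolic HSP70 that heat strongly induces, fell in both the globular and the seed coat library relative to WT 2-4 cell embryos. It had 87.3 and 97.4 CPM in kyp libraries 11 and 12, 44.5 CPM in the globular library and 13.4 CPM in the seed coat library, against 281 and 191 CPM in WT libraries 7 and 11. Both kyp values lay below both WT values, and the seed coat held the lowest of all 6. In the globular library the log2 fold change was −2.40 (SE 0.55, edgeR adjusted p = 0.0411), a 5.28-fold lower level. In the seed coat it was −4.13 (SE 0.61, edgeR adjusted p = 0.00353), 17.5-fold lower, on 30 reads that covered 38.4% of the transcript. In kyp it was −1.34 (SE 0.38, edgeR adjusted p = 0.653), which did not pass. The seed coat call held in each of 13 alternative fits, whereas the globular call was lost when isoforms were summed (adjusted p = 0.0705) and without WT library 7 (adjusted p = 0.0644).

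HSP90.1 (AT5G52640), the heat-inducible cytosolic HSP90, was the steadiest stress member among the WT embryos. It had 70.1 and 98.4 CPM in the kyp libraries, 101 CPM in the globular library and 53.3 CPM in the seed coat library, against 220.2 and 228 CPM in WT libraries 7 and 11. All 4 other libraries lay below the WT pair, by more than 2-fold each. The log2 fold change was −1.40 in kyp (SE 0.37, unadjusted p = 0.00267, edgeR adjusted p = 0.569), −1.15 in the globular library (SE 0.50, adjusted p = 0.387) and −2.07 in the seed coat (SE 0.53, adjusted p = 0.0841). None of these passed in the fit used here. The seed coat difference passed in 5 of 12 alternative edgeR fits, among them the one with the library name prefix MC as a block (adjusted p = 0.0423) and the one with only the compared groups (adjusted p = 0.0243), and with DESeq2's Wald test (adjusted p = 0.00224).

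HSP101 (AT1G74310), the cytosolic disaggregase, differed more between the WT libraries themselves than the other stress members did. It had 74.7 and 86.5 CPM in the kyp libraries, 58.2 CPM in the globular library and 33.6 CPM in the seed coat library, against 308 and 117 CPM in WT libraries 7 and 11. The groups did not overlap, but WT library 11 was closer to the kyp libraries than to WT library 7. The log2 fold change was −1.39 in kyp (SE 0.46, edgeR adjusted p = 0.787), −1.87 in the globular library (SE 0.61, adjusted p = 0.192) and −2.66 in the seed coat (SE 0.64, adjusted p = 0.0634). The seed coat difference passed in 7 of 12 alternative edgeR fits, with the MC prefix as a block at −2.86 (adjusted p = 0.00194), and with DESeq2 (adjusted p = 0.00186). The globular difference passed in 6 of the 12, with that block at −2.06 (adjusted p = 0.0336), and was −1.01 (adjusted p = 0.529) without WT library 7 and −2.40 (adjusted p = 0.03) without WT library 11. In kyp the adjusted p was 0.0348 without WT library 11 and 0.993 without WT library 7.

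HSP70B (AT1G16030), a further heat-induced cytosolic HSP70 that is nearly silent in unstressed plants, was the weakest stress member. It had 11.2 and 22.1 CPM in the kyp libraries, 11.9 CPM in the globular library and 14.8 CPM in the seed coat library, against 25.6 and 48.5 CPM in WT libraries 7 and 11. Both WT values were the highest, but kyp library 12 came close to WT library 7. No comparison passed, with log2 fold changes of −1.12 in kyp (SE 0.59, edgeR adjusted p = 1.00), −1.64 in the globular library (SE 0.84, adjusted p = 0.495) and −1.33 in the seed coat (SE 0.82, adjusted p = 0.726). The 20 reads of the globular library covered 8.37% of the transcript, against 28.8 and 55.2% in the WT libraries.

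In kyp none of the 10 members passed edgeR's threshold, nor DESeq2's (by edgeR 0.0125% of the 15996 genes tested passed as lower and 0.0188% as higher). At an unadjusted p under 0.05 there were 3 members, all lower and all stress-induced (HSP90.1, HSP70-4 and HSP101), where 2.19% of all genes were lower at that level. Both kyp libraries lay below both WT libraries for all 4 stress members and for HSC70-3, hence for 5 of 10, and for 16.1% of all genes. The median log2 fold change was −1.37 over the 4 stress members, −0.26 over the 3 constitutive members and −0.62 over the 3 ER members, against −0.00 over all genes tested. Endosperm markers summed to 118 and 53.9 CPM in kyp libraries 11 and 12, against 54.2 and 51.6 CPM in WT libraries 7 and 11. By this sum only kyp library 11 stood apart. None passed, and 5 of 5 tested were higher in kyp (median log2 1.29). That count leans toward kyp, because MEA and FIS2 passed the low-count filter through the kyp libraries. MEA had 29 and 48 reads in kyp and 7 and 8 in WT, and FIS2 9 and 15 against 0 and 2. IKU2 (0 and 0 against 9 and 0), MINI3 (3 and 0 against 2 and 14) and YUC10 (16 and 1 against 0 and 2) were not tested. Of the 8 endosperm markers IKU2 was at 0 in both kyp libraries and in WT library 11, MINI3 in kyp library 12, and FIS2 and YUC10 in WT library 7. The part of endosperm RNA in the chaperone differences was not tested.

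**Figure D2:**
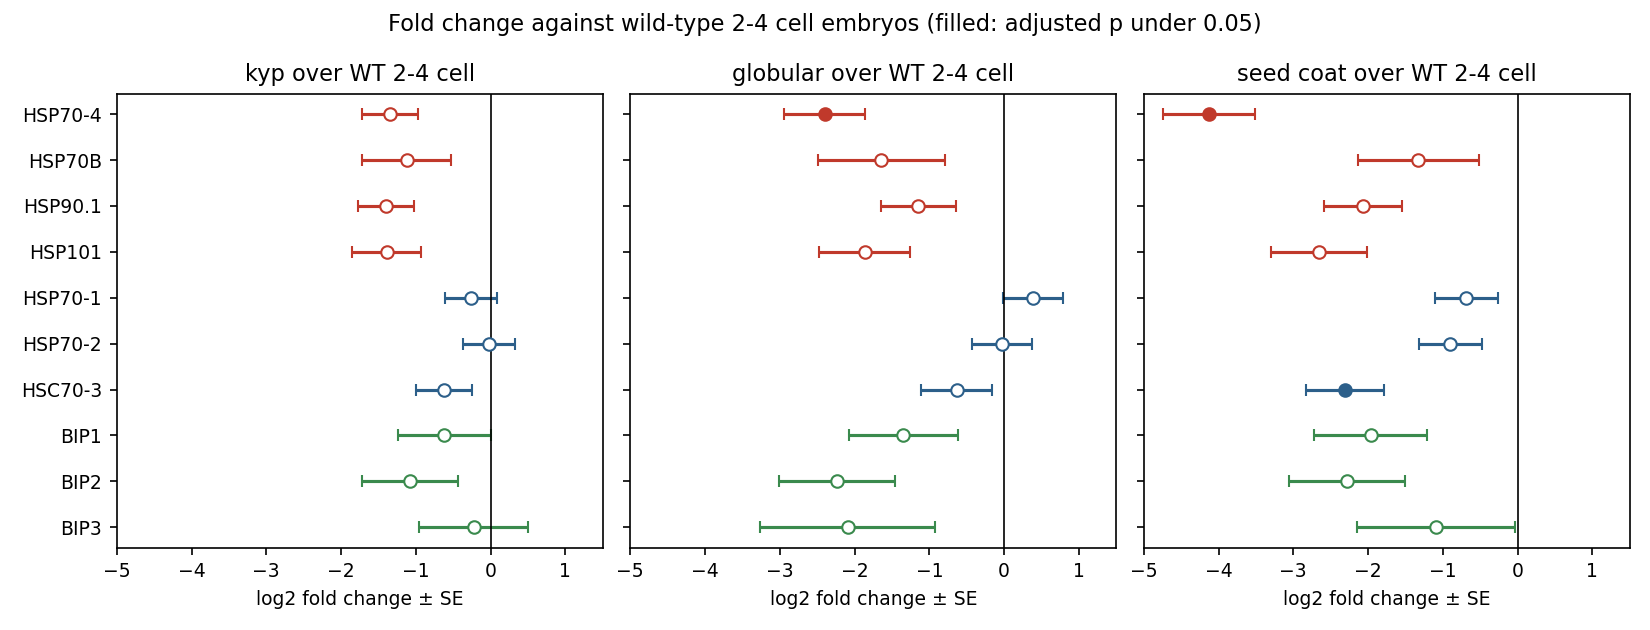
Log2 fold change (point) with its standard error (bar) of each chaperone gene in kyp, globular and seed coat libraries over the WT 2-4 cell pair, colored by class, with filled points for an edgeR adjusted p under 0.05. HSP70-4 is filled in the globular (−2.40) and seed coat (−4.13) panels and HSC70-3 in the seed coat panel (−2.31).

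Of the constitutive members, HSP70-1 (AT5G02500), the major cytosolic HSP70 of unstressed cells, was the only member above both WT libraries in the globular library. It had 1369 and 1087 CPM in the kyp libraries, 1928 CPM in the globular library and 918 CPM in the seed coat library, against 1804 and 1154 CPM in WT libraries 7 and 11. The kyp and WT values overlapped, and the seed coat was lowest. The log2 fold change was −0.26 in kyp (SE 0.35, edgeR adjusted p = 1.00), 0.38 in the globular library (SE 0.40, adjusted p = 0.792) and −0.69 in the seed coat (SE 0.42, adjusted p = 0.722), each less than 2 standard errors from 0.

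HSP70-2 (AT5G02490), its neighbour on chromosome 5 and closest relative among the members, varied less than any stress member. It had 1826 and 1458 CPM in the kyp libraries, 1645 CPM in the globular library and 897 CPM in the seed coat library, against 2029 and 1322 CPM in WT libraries 7 and 11. The kyp and globular values lay between the WT values. The log2 fold change was −0.02 in kyp (SE 0.34) and −0.03 in the globular library (SE 0.40), both with an edgeR adjusted p of 1.00, and −0.90 in the seed coat (SE 0.42, adjusted p = 0.513).

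HSC70-3 (AT3G09440), the remaining cytosolic cognate HSP70, fell in the seed coat library. It had 389 and 420.1 CPM in the kyp libraries, 403 CPM in the globular library and 126 CPM in the seed coat library, against 801 and 449.6 CPM in WT libraries 7 and 11. The kyp and globular values were close to each other and to WT library 11, and the seed coat stood apart. The seed coat log2 fold change was −2.31 (SE 0.52, edgeR adjusted p = 0.0451), and that call was lost with upper-quartile scaling (adjusted p = 0.0601), with isoforms summed (adjusted p = 0.0795) and without WT library 7 (adjusted p = 0.0832). The log2 fold change was −0.62 in kyp (SE 0.38, adjusted p = 1.00) and −0.63 in the globular library (SE 0.47, adjusted p = 0.68).

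Over all members, 1 of 10 fell in the globular library, HSP70-4 (0.774% of the 17706 genes tested were called lower and 0.384% higher), and 8 of 10 were below both WT libraries there, against 35.5% of all genes. At an unadjusted p under 0.05 the members lower in the globular library were HSP70-4, HSP90.1, HSP101 and BIP2, hence 4 of 10, against 6.96% of all genes. In the seed coat library 2 of 10 fell, HSP70-4 and HSC70-3 (0.627% of genes were called lower and 0.158% higher). At an unadjusted p under 0.05, 7 of 10 were lower, against 6.13% of all genes, with HSP70-1, HSP70B and BIP3 the exceptions. All 10 were below both WT libraries in the seed coat, against 30.5% of all genes, and for 7 of 10 the seed coat was the lowest of the 6 libraries, against 16.4% of all genes. With upper-quartile scaling HSP70-2 turned to 0.03 in the globular comparison, and the median over all genes in that comparison was −0.12 as fitted. Embryo markers were lower too in the seed coat library, in 5 of 6 tested, of which WOX2 and LEC1 fell, and the endosperm markers summed to 90.07 CPM there and to 27.3 CPM in the globular library, with IKU2 at 0 in both and MEA and YUC10 also at 0 in the globular library. Their part in the chaperone values was not tested. These comparisons share the WT pair with each other and with kyp, and the lone globular and seed coat libraries are assumed to vary like the 2-4 cell pairs.

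The stress members were also lower relative to the constitutive members of the same library, a ratio that library scaling does not touch. Summed reads per kilobase of the 4 stress members came to 6.17 and 9.36% of those of the 3 constitutive members in the kyp libraries, 4.92% in globular embryos and 5.34% in seed coat, against 16.1 and 18.6% in WT libraries 7 and 11. The groups did not overlap, with means of 7.76 ± 2.25% in kyp and 17.3 ± 1.75% in WT (SD, n = 2 each). The classes do not rest on these data, but the ratio was not tested as a score. The seed coat had the lowest summed stress level, 44.4 CPM per kilobase, against 320 and 233 in WT, with 95.0 and 119 in kyp and 83.8 in globular embryos, while its constitutive sum of 831 CPM per kilobase was also the lowest, so its ratio was close to that of the globular library.

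**Figure D3:**
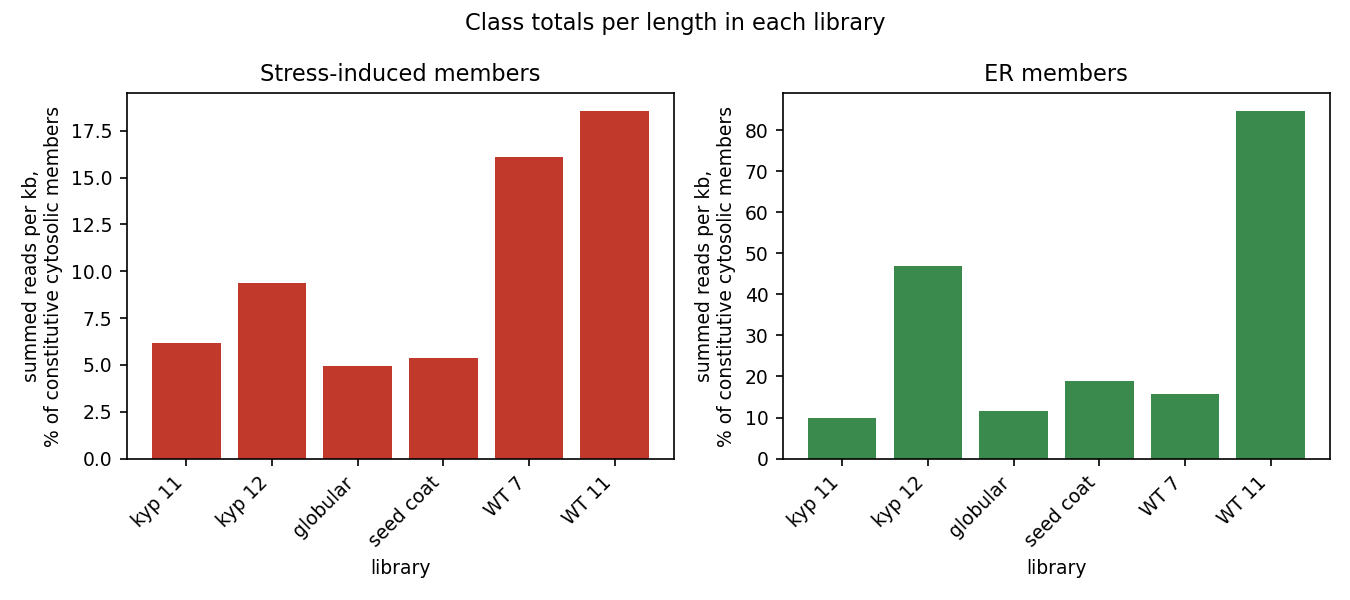
Summed reads per kilobase of the stress-induced members (left) and of the ER members (right) as a percentage of the summed constitutive cytosolic members, 1 bar per library. The WT libraries show 16.1 and 18.6% for the stress members and no other library exceeds 9.36%; the ER bars are high in kyp library 12 (47.0%) and WT library 11 (84.7%).

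Of the ER members, BIP1 (AT5G28540) and BIP2 (AT5G42020), the main lumenal HSP70s that bind nascent secretory proteins, split the libraries by name prefix more than by group. BIP1 had 169 and 651 CPM in kyp libraries 11 and 12, 248 CPM in the globular library and 162 CPM in the seed coat library, against 288 and 976 CPM in WT libraries 7 and 11. BIP2 had 183 and 739 CPM in the kyp libraries, 207 CPM in the globular library and 201 CPM in the seed coat library, against 432 and 1522 CPM in the WT libraries. For both genes the kyp and WT values overlapped, and the libraries with the MC prefix, kyp library 12 and WT library 11, were the highest.

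The MC library exceeded its partner 3.86-fold for BIP1 and 4.03-fold for BIP2 in kyp, and 3.39-fold and 3.52-fold in WT. With 2 mismatches allowed, 60.8% of BIP1 windows and 66.6% of BIP2 windows were shared, so the ratios of these genes are not independent. Only the MC libraries held fractional read values. Whether reads that match both BIP1 and BIP2 were counted differently in the MC libraries was not tested. Of all genes tested in kyp, 1.79% (287) were more than 3-fold higher in both MC libraries. Of 22 other ER folding genes 0 were, which is near that share and does not set them apart from genes in general. The median ratio of those 22 genes was 1.499 in kyp and 0.954 in WT, against 1.017 and 1.022 over all genes tested. The other 8 members ranged from 0.794-fold to 2.24-fold in kyp and from 0.38-fold to 1.89-fold in WT, with HSP70B, at 1.97-fold and 1.89-fold, nearest to BIP1 and BIP2. How the MC libraries were made differently, if they were, was not tested.

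**Figure D4:**
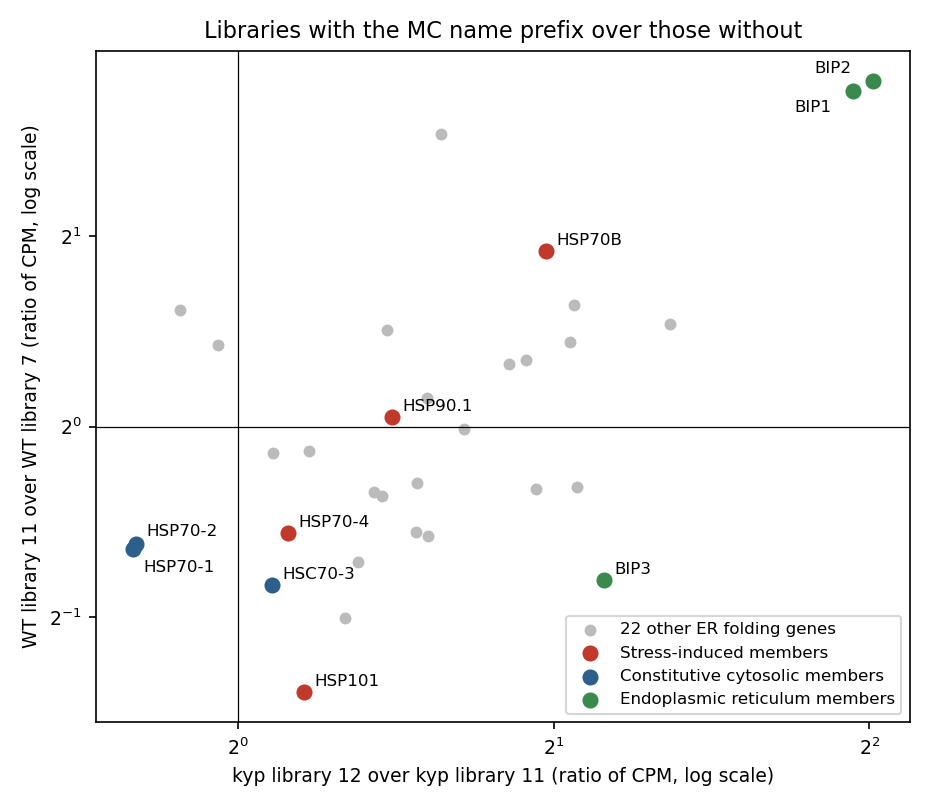
Ratio of CPM in the library with the MC name prefix to that without it, for kyp (x axis) and WT (y axis), both on log scales, with 1 point per chaperone gene (colored by class) and gray points for 22 other ER folding genes. BIP1 (3.86 and 3.39) and BIP2 (4.03 and 3.52) lie apart from all other points at upper right.

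Within each pair of like name prefix BIP2 was lower in kyp, 0.424 times WT library 7 in kyp library 11 and 0.485 times WT library 11 in kyp library 12. BIP1 stood at 0.586 and 0.667. For the stress members the same ratios were 0.311 and 0.511 for HSP70-4, 0.318 and 0.432 for HSP90.1, 0.439 and 0.456 for HSP70B, and 0.243 and 0.738 for HSP101. HSP70-1 stood at 0.759 and 0.942, HSC70-3 at 0.486 and 0.934, HSP70-2 at 0.9 and 1.10, and BIP3 at 0.404 and 1.58. Hence 8 of 10 members, all but HSP70-2 and BIP3, were below 1 in both pairs, against 24.9% of all genes tested in kyp.

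Without regard to the prefix the log2 fold change in kyp was −0.62 for BIP1 (SE 0.62) and −1.08 for BIP2 (SE 0.64), both with an edgeR adjusted p of 1.00. With the prefix as a block BIP2 had −1.13 (SE 0.31, unadjusted p = 0.0018) and an edgeR adjusted p of 0.357, again not past the threshold. BIP2 had −2.24 in the globular library (SE 0.77, adjusted p = 0.235) and −2.28 in the seed coat (SE 0.77, adjusted p = 0.25). BIP1 had −1.35 (SE 0.73, adjusted p = 0.526) and −1.97 (SE 0.75, adjusted p = 0.343) in those libraries. Without WT library 11 BIP2 had −1.06 in globular embryos and −1.11 in seed coat, and BIP1 −0.21 and −0.83. With the prefix as a block BIP2 had −1.01 and −1.06, and BIP1 −0.17 and −0.78. In both globular embryos and seed coat BIP2 passed in 5 of 12 alternative edgeR fits, and BIP1 passed in 0 for globular embryos and 5 for seed coat, but neither passed without WT library 11 or with the block.

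BIP3 (AT1G09080), the BiP gene that is low without ER stress, was near the limit of counting. It had 7.94 and 17.7 CPM in the kyp libraries, 3.56 CPM in the globular library and 7.17 CPM in the seed coat library, against 19.6 and 11.2 CPM in WT libraries 7 and 11. The globular and seed coat libraries lay below both WT values, on 6 and 16 reads. The log2 fold change was −0.23 in kyp (SE 0.73, edgeR adjusted p = 1.00), −2.09 in the globular library (SE 1.17, adjusted p = 0.544) and −1.09 in the seed coat (SE 1.06, adjusted p = 0.916). BIP3 did not follow the MC prefix in WT, where WT library 11 had 0.571 times the level of WT library 7.

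Other chaperones of the same families were described from a list of 18 loci, of which 17 were tested. In kyp 13 of 17 had a negative fold change (50.1% of all genes), with a median log2 of −0.31, in the globular library 15 of 17 (54.8% of all genes), with −0.46, and in the seed coat 17 of 17 (49.99% of all genes), with −1.41. None passed with edgeR. At an unadjusted p under 0.05 there were 2 in kyp, 2 in globular embryos and 11 in seed coat, all lower, and DESeq2 called 0, 0 and 7 of the list in these comparisons. Over all genes 2.19, 6.96 and 6.13% were lower at that level, and DESeq2 called 50, 342 and 442 genes. HSP90.2, a constitutive cytosolic HSP90, had 290.3 and 751 CPM in kyp, 346 CPM in the globular library and 127 CPM in the seed coat, against 513 and 839 CPM in WT. Its sister HSP90.3 had 483 and 947 CPM in kyp, 511 CPM in the globular library and 205 CPM in the seed coat, against 639 and 1138 CPM in WT. The seed coat value was the lowest for both, with adjusted p of 0.0751 and 0.0877. HSP90.7, the ER member of the HSP90 family, had 891 and 1679 CPM in kyp, 928 CPM in the globular library and 885 CPM in the seed coat, against 1077 and 1376 CPM in WT, and the plastid HSP70 gene cpHSC70-1 had 309 to 440.3 CPM in the 6 libraries.

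Of 18 co-chaperones, which hand clients between HSP70 and HSP90 or set their ATPase cycles, 13 were negative in kyp (median −0.26), 9 in the globular library (median −0.11) and 17 in the seed coat (median −1.09). Over all genes 50.1, 54.8 and 49.99% were negative in these comparisons. At an unadjusted p under 0.05 there were 3 lower in kyp, 2 lower and 3 higher in globular embryos, and 6 lower in seed coat. The shares of all genes at that level were 2.19% lower in kyp, 6.96% lower in globular embryos and 6.13% lower in seed coat. In globular embryos 761 of 17706 genes were higher. Neither edgeR nor DESeq2 called any in kyp. HOP3, the stress-induced form of the adaptor that bridges HSP70 and HSP90, fell in the seed coat (log2 fold change −2.95, SE 0.59, edgeR adjusted p = 0.0212), and edgeR called no other co-chaperone. Of all genes 0.627% were called lower in the seed coat by edgeR. DESeq2 called HOP3 and ROF1 in the seed coat and ROF2 in the globular library. HOP3 had 93.2 and 182 CPM in kyp, 89.7 CPM in the globular library and 35.4 CPM in the seed coat, against 254 and 293 CPM in WT, with no overlap between WT and the rest. ROF1, a peptidyl-prolyl isomerase that binds HSP90.1, had 358 and 414 CPM in kyp, 317 CPM in the globular library and 168 CPM in the seed coat, against 581 and 545 CPM in WT. The J-domain gene ATJ3 had 433 to 863 CPM, HOP1 113 to 245 CPM and P23-1, an HSP90 co-chaperone, 467 CPM in the seed coat to 1499 CPM in the globular library.

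Of 27 further heat stress genes 21 were tested in kyp and 22 in the other comparisons. In kyp 18 of 21 were negative (median −0.94) and none passed by edgeR or DESeq2, while 10 were lower and 1 higher at an unadjusted p under 0.05. Over all genes 50.1% were negative, and at that level 2.19% were lower and 465 of 15996 higher. In the globular library 19 of 22 were negative (median −2.17) and 6 fell, among them HSFA2, a heat shock factor, with 54.6 CPM in the globular library against 510 and 325 CPM in WT. Over all genes 54.8% were negative there and 0.774% were called lower. In the seed coat 16 of 22 were negative (median −1.68) and 8 fell, among them HSFA2, at 25.1 CPM. Over all genes 49.99% were negative there and 0.627% were called lower. The others that fell were DREB2A and the small heat shock genes HSP17.6A, HSP17.4, HSP17.6C and HSP17.6B in the globular library, and these small heat shock genes with HSP17.6II, HSP17.8 and HSP23.5 in the seed coat. MBF1C, a heat-responsive coactivator, had 161 and 176 CPM in kyp, 90.9 CPM in the globular library and 86.5 CPM in the seed coat, against 440.3 and 243 CPM in WT, and did not pass, nor did HSFB1, at 45.1 to 120 CPM in the 6 libraries.

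The 22 ER folding genes other than BiP moved less. In kyp 15 were negative (median −0.09), in the globular library 15 (median −0.23) and in the seed coat 16 (median −0.46). Over all genes 50.1, 54.8 and 49.99% were negative. None of the 22 passed by edgeR or DESeq2, and at an unadjusted p under 0.05 there were 0 in kyp, 3 in globular embryos and 1 in seed coat, all lower. The shares of all genes lower at that level were 2.19, 6.96 and 6.13%. CNX1, the lectin chaperone calnexin, had 966 and 1589 CPM in kyp, 1192 CPM in the globular library and 823 CPM in the seed coat, against 1318 and 1307 CPM in WT. PDIL2-1, a protein disulfide isomerase, had 421 to 667 CPM and ERDJ2A, a J-domain protein of the ER, 282 to 652 CPM. The medians over BIP1, BIP2 and BIP3 were −0.62 in kyp, −2.09 in globular embryos and −1.97 in seed coat.

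The loci whose log2(CPM + 1) followed HSP70-4 most closely over the 6 libraries were AT1G15940 (Pearson r = 0.994), AT4G36580 (0.991), HSP17.8 (0.989), ROF1 (0.989) and HSP17.6A (0.988), out of 17705 loci. Among the other members HSP101 came first at rank 79 (r = 0.930), then HSC70-3 at rank 86 (r = 0.926) and HSP90.1 at rank 293 (r = 0.866). HSP70-2 was at rank 1039 (r = 0.7245) and BIP3 at rank 1492 (r = 0.661), ahead of the remaining stress member, HSP70B, at rank 1734 (r = 0.631). BIP2 and BIP1 came next, and HSP70-1 was last of the members at rank 3633 (r = 0.415). For HSP70-1 the closest loci were PHR1 (r = 0.996), ATARCA (0.991), ADNT1 (0.991), LOS1 (0.991) and EMB2296 (0.987), and HSP70-2 stood at rank 706 (r = 0.816). The 6 points include the pairs of 2 groups and share their scaling, so these values only describe the libraries.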

How the data were processed

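Per the file headers, the deposited files hold read counts per transcript, with signal given as covered bases and summed coverage. Counts were whole numbers in 4 libraries. In the 2 libraries with the MC prefix the values as deposited were handled as estimated counts, since 12.7% (WT library 11) and 10.8% (kyp library 12) of transcripts ended in 0.5 reads, and these were rounded up. The aligner, genome build and annotation are not given in the sources used here, so no coordinates are printed. The 37813 transcripts in all 6 files were used, 5 in only some were left out, and a locus was read from its most-counted isoform. Amplified reads carry no molecular identifiers and are not independent molecules.

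Genes were tested with edgeR 4.0.16 under R 4.3.3, by quasi-likelihood F tests after TMM scaling and a filterByExpr minimum count of 10, with Benjamini-Hochberg adjustment over all genes at 0.05. The 4 libraries of 2-4 cell embryos entered the kyp fit, and all 6 libraries, as 4 groups, the others, leaving 2 residual degrees of freedom each. The biological coefficient of variation was 0.475 in kyp and 0.505 in the others. Every adjusted p is from this test unless DESeq2 1.42.0 is named. A standard error was obtained from the F statistic, as the absolute log2 fold change over the square root of F. The tests were run on simulated data first, with less spread between libraries and larger changes than most members showed. That run therefore does not measure how the tests perform on these libraries. Alternatives were other scalings, no filter, summed isoforms, rounding down, DESeq2, equal depth, the MC prefix as a block, other sets of libraries and leaving out each library.

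The members, gene lists and tests were chosen with earlier results of these data known. Text names the 10 members, list genes past the threshold, up to 4 of the highest mean CPM per list, and the 5 loci most like HSP70-4 and HSP70-1. Markers of seed coat (8), embryo (6) and endosperm (8) were checked by summed CPM: embryo markers summed to 486 and 538 CPM in kyp, 407 CPM in the globular and 359 CPM in the seed coat library, against 627 and 593 CPM in WT. Sequences were read from RefSeq TAIR10.1. Genes of the lists were not checked for shared or antisense sequence.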

Additional observations from a re-analysis of the deposited data

How the results depend on the processing

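HSP70-4 in the seed coat kept its call in all 13 alternatives. Over single genes, 335 results kept direction and side of the threshold, 37 newly passed, 5 no longer passed and 13 turned sign. Genes called numbered 5 in kyp, against 106 with no filter on low counts, 50 by DESeq2, 18 with the MC prefix as a block, 14 with all 6 libraries and 8 to 126 without single libraries. The globular comparison called 205, against 562 with no filter, 342 by DESeq2, 344 with the prefix block, 538 with only the compared groups and 336 to 496 without single libraries. The seed coat called 139, against 479, 442, 296 and 378 under the same settings, 85 with isoforms summed and 267 to 428 without single libraries. With HSP70-2 left out, the stress to constitutive ratio was 12.7 and 18.6% in kyp, 8.47% in the globular and 10.05% in the seed coat library, against 28.8 and 34.1% in WT, and with isoforms summed 4.74 and 7.43% in kyp, 3.47% in globular embryos and 3.90% in seed coat, against 12.4 and 14.2% in WT. Signs turned for HSP70-2 in kyp at equal depth (log2 0.016) and with the prefix block (0.00096), and in the globular comparison with upper-quartile scaling (0.031) and at equal depth (0.011). Leaving out single libraries gave HSP70-2 a range of −0.30 to 0.32 in kyp and −0.30 to 0.32 in the globular comparison, both positive without WT library 7. In kyp the ranges were −0.55 to 0.098 for HSP70-1, −0.94 to 0.23 for BIP3, −1.89 to 0.52 for BIP1 and −2.40 to 0.097 for BIP2. Of these, HSP70-1 and BIP3 were positive without WT library 7, BIP1 and BIP3 without kyp library 11, BIP1 and BIP2 without WT library 11, and HSP70-2 also without kyp library 12. BIP2 passed in kyp without kyp library 12 (log2 −2.40, adjusted p = 0.00207). Causes were not tested. No paired analysis was possible because the groups share only replicate number 11; the block above is a library name prefix, not a replicate number. Depth limits BIP3 and HSP70B, at 6 to 173 reads.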

Other observations

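Some chaperones outside the named members stood apart by tissue, chosen after their values were seen. HSP90.5, the plastid HSP90, had 571 CPM in the globular library and 96.4 CPM in the seed coat library, against 365 and 355 CPM in WT libraries 7 and 11, with 275 and 323 CPM in kyp. HSP70T-2, a truncated HSP70, had 20.5 and 20.2 CPM in the kyp libraries, 22.6 CPM in the globular library and 17.5 CPM in the seed coat library, against 92.2 and 55.2 CPM in the WT libraries. Its log2 fold change in kyp was −1.85 (SE 0.47, edgeR adjusted p = 0.521), which did not pass. The mitochondrial HSP70 gene mtHSC70-1 had 452 and 303 CPM in kyp, 442 CPM in the globular library and 132 CPM in the seed coat library, against 339 and 359.9 CPM in WT.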
